A study of Mus musculus with 15 samples.

Results

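Heme synthesis and breakdown was followed through 9 genes that were chosen by symbol, with earlier results of these data known. They encode 7 enzymes of heme synthesis, in order Alas1, Alad, Uros, Urod, Cpox, Ppox and Fech, then heme oxygenase 1 (Hmox1) and biliverdin reductase B (Blvrb). All 9 were among the 55984 gene symbols of the count table and among the 17488 genes that passed the filter on low counts. The RNA came from hepatocytes of WT C57BL/6JJcl male mice, 7 to 15 weeks old, that were stained with Hoechst and sorted by DNA content. The 2n-whole group held diploid cells (4 libraries, mice 1 to 4) and the 4n-whole group held tetraploid cells before any further split (4 libraries, mice 1 to 4). The 4n-bottom group was the part of the tetraploid cells with low Hoechst peak height, mostly binucleated (4 libraries, mice 1 to 4), and the 4n-top group was the part with high peak height, enriched in mononucleated cells (3 libraries, mice 2 to 4). The 4n-top cells were sorted once and still held many binucleated cells, and mouse 1 had no 4n-top library in the comparison because of poor RNA quality. Sorted 2n cells were pelleted at a higher centrifugal speed than 4n cells, so DNA content and this handling step cannot be told apart in a comparison with 2n-whole.

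Heme is built from glycine and succinyl-CoA in a chain of reactions that starts and ends in mitochondria, with the middle steps in the cytosol. Alas1 makes the first intermediate and is the rate-limiting step in liver, where most new heme goes into cytochrome P450 enzymes and where heme itself holds Alas1 down. Hmox1 opens the heme ring to biliverdin, iron and carbon monoxide and is induced by heme and by oxidative stress. Biliverdin is then reduced to bilirubin, and RNA levels do not show which reductase acts on the biliverdin made by Hmox1.

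Libraries held between 22049498 and 42096421 counts, and 3 counts corresponded to between 0.0693 and 0.120 CPM (counts scaled to a library total of 1000000, corrected by TMM, the trimmed mean of M-values). Hepatocyte markers were high in every library, with Alb, the albumin gene, between 48549 and 73188 CPM. Markers of Kupffer cells, which break down red cell heme in the liver, summed over 12 genes to between 0.748 and 10.1 CPM. Genes of the mitochondrial genome took 20.5% to 26.2% of the counts in 2n-whole and 8.84% to 18.5% in 4n-whole. Summed markers of cholangiocytes (7 genes) were 55.1 to 68.3 CPM in 2n-whole and 28.6 to 52.1 CPM in 4n-whole, with their defining gene Krt19 at 0 in 7 of 15 libraries. The part of these mitochondrial and cholangiocyte shares in the differences of the 9 genes was not tested.

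Between 4n-whole and 2n-whole hepatocytes, Hmox1 and Blvrb of heme breakdown and Alad and Cpox of heme synthesis rose. Alas1, the first gene of synthesis, had a lower level. The other breakdown enzymes Hmox2 (log2 fold change -0.17) and Blvra (-0.08) did not rise. Hmox1 rose 1.67-fold and Blvrb 1.47-fold in 4n-whole cells, and both passed the adjusted p threshold of 0.05 together with the log2 fold change limit of 0.5. Alad rose 1.38-fold and Cpox 1.32-fold, while Alas1 fell to 0.789 of its 2n-whole level, and these 3 passed the adjusted p but not the fold limit. Alas1 did not pass the adjusted p threshold when scaled by library totals (adjusted p = 0.491) or without mouse 1 (adjusted p = 0.311). Hmox1 did not pass it without mouse 1 (adjusted p = 0.0905) or in a fit of the compared populations alone (adjusted p = 0.0631). In the main fit 2 of 9 members passed both limits, beside 3.47% of all tested genes. Whatever their fold change, 5 of 9 passed the adjusted p, beside 5.47% of all tested genes. The median log2 fold change was 0.40 over the 9 members and -0.01 over all tested genes. Because the members were chosen with earlier results of these data known, these shares and medians are descriptions. The counts are shares of each library and hold no measure of RNA per cell, so rises and falls here are not amounts per cell. In these bulk samples a lower share in fewer expressing cells and a lower share in each cell also cannot be told apart.

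**Figure D1:**
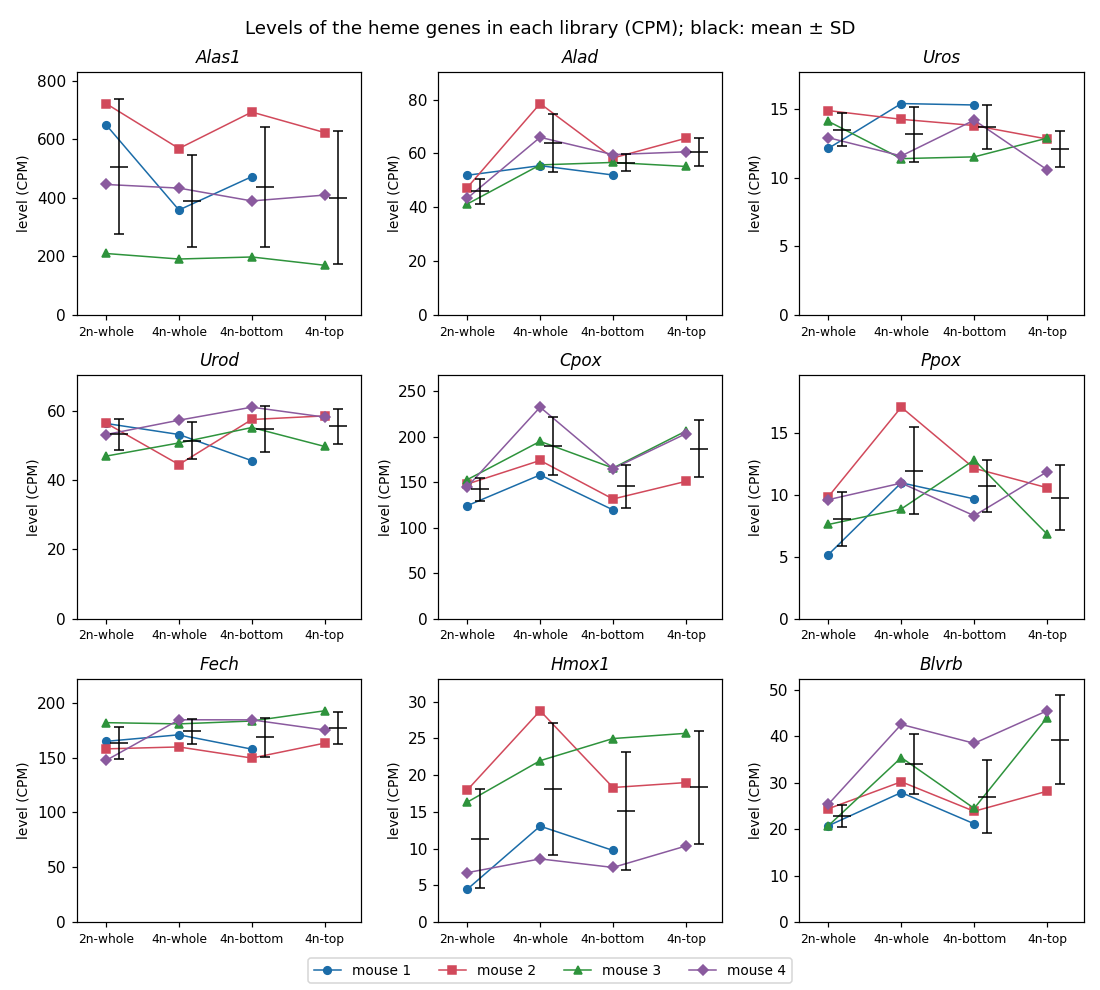
Level of each of the 9 genes in every library in CPM, by population, with a coloured line for each mouse and the mean ± SD of each population in black (n = 4, 3 in 4n-top). Alas1 and Hmox1 lines of different mice lie far apart, from 169.7 to 723 CPM and from 4.46 to 28.7 CPM, whereas Alad, Cpox and Blvrb are lowest in 2n-whole by their population means.

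Per length of exon, Alas1 was the most abundant of the 9 transcripts, at a mean of 44.2 CPM per kilobase over the 15 libraries, and Cpox, which acts in the mitochondrial intermembrane space, followed at 23.9. Fech (12.0 CPM per kilobase), which inserts iron into the porphyrin ring, and Blvrb (10.38) came next. Urod (9.02), Hmox1 (8.84) and Alad (8.402), which act in the cytosol or at its membranes, lay close together per length. Their exon unions were 5937, 1759 and 6720 bases and their median levels 55.1, 16.3 and 55.7 CPM, so this closeness depends on the length used. The lowest levels per length were those of Uros (1.79 CPM per kilobase), which closes the porphyrin ring, and of Ppox (1.27), the enzyme before Fech. With the longest transcript in place of the union of exons, Alas1 (88.0 CPM per kilobase) and Cpox (49.3) stayed first and Uros (3.46) and Ppox (1.43) last. Which transcripts these cells express was not determined, so the order per length is uncertain.

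**Figure D2:**
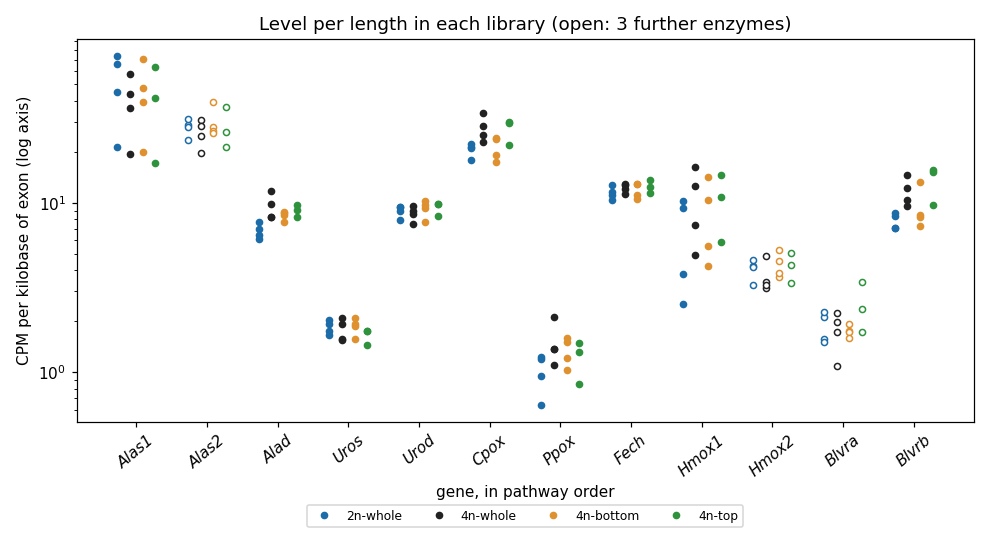
Level per kilobase of exon (CPM per kilobase, log axis) of the 9 genes (filled) and of 3 further enzymes of the pathway (open) in pathway order, each point being 1 library, coloured by population. Alas1 is the highest on average (44.2) and Ppox the lowest (1.27), and the points of Alas1 and Hmox1 spread most within a population.

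Alas1 (ENSMUSG00000032786) lies on chromosome 9 at 106110642 to 106135734, minus strand (GRCm39), and encodes 5-aminolevulinate synthase 1. In mice 1 to 4 its level was 650.2, 723, 210.0 and 446 CPM in 2n-whole, against 359, 569, 191 and 434 CPM in 4n-whole. In 4n-bottom it was 473, 694, 198 and 389.7 CPM, and in 4n-top 623, 169.7 and 409.8 CPM for mice 2 to 4. The 4n-whole level was below the 2n-whole level in 4 of 4 mice, yet the populations overlapped widely because mouse 3 was low and mouse 2 high throughout. Within mice the log2 fold change of 4n-whole against 2n-whole was -0.34 (SE 0.10, adjusted p = 0.0445, edgeR quasi-likelihood test with mouse as block). Without mouse 1 the log2 fold change was -0.17 (adjusted p = 0.311), and without mouse 2 it was -0.35 (adjusted p = 0.0742). Scaled by library totals without TMM it was -0.14 (adjusted p = 0.491), and in a fit of these 2 populations alone -0.35 (adjusted p = 0.168). Of 12 alternative fits 7 kept the adjusted p under 0.05, and the joint test of any population difference gave an adjusted p of 0.201. Against 2n-whole, 4n-top showed -0.30 (SE 0.11, adjusted p = 0.266), lower in 3 of 3 mice.

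The sequence before the start is shown for 4 of the 5 genes that passed the adjusted p in 4n-whole against 2n-whole. RefSeq (GRCm38.p6, coordinates not converted) gave windows of 250 bases before the start for 7 of the 9 members (not for Fech and Hmox1), 11 windows in all. Capitals mark 1 of 3 motifs searched on both strands, namely GCGCATGCG (NRF1), CACGTG (E-box) and TGACNNNGC (antioxidant response element), and matches of different motifs do not overlap here. NRF1, a factor that works with PGC-1alpha on nuclear genes for mitochondria, and the E-box, which clock and other basic helix-loop-helix factors bind, were chosen with the sequences at hand. GCGCATGCG was found in 1.45% of 32851 windows, CACGTG in 6.02% and TGACNNNGC in 10.2%. Alas1, Alad and Blvrb each had 2 windows, of which 1 is printed, the second for Alas1 because it held a motif. The 4 windows belong to Alas1 at chr9:106247731-106247980, minus strand, Alad at chr4:62520064-62520313, minus strand, Cpox at chr16:58669958-58670207, plus strand, and Blvrb at chr7:27447728-27447977, plus strand.
Alas1: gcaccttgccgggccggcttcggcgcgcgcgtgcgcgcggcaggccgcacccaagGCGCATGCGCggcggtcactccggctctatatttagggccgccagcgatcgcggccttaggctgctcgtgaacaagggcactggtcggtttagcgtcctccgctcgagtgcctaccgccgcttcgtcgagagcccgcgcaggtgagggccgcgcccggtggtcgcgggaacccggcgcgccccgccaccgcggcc
Alad: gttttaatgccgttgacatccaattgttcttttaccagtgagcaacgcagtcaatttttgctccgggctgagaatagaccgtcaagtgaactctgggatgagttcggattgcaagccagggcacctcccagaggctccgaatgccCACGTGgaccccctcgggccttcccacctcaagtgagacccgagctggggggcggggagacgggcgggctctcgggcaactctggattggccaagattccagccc
Cpox: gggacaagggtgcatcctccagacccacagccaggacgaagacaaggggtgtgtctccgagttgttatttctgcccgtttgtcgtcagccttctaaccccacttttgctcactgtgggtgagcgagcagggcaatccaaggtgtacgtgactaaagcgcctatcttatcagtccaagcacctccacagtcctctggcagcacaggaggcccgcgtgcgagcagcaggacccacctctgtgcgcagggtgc
Blvrb: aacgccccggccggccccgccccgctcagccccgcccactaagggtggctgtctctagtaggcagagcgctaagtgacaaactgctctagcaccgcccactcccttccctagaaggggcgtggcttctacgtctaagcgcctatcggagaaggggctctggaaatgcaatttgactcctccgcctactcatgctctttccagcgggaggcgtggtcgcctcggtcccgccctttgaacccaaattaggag
The first Alas1 window held none of the 3 motifs. In the second the NRF1 letters occur on both strands as 1 overlapping pair, from positions -195 and -194 relative to the start. Alad held CACGTG at position -105, and at position -28 in its second window, and CACGTG was also found in Urod at -49 and in Uros at -250. The windows of Cpox, Ppox and Blvrb held none of the 3 motifs.

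Alad (ENSMUSG00000028393, chromosome 4, 62423283 to 62438587, minus strand) encodes the cytosolic enzyme that joins 2 aminolevulinate molecules into porphobilinogen. Its level in mice 1 to 4 was 51.9, 47.3, 41.2 and 43.3 CPM in 2n-whole and 55.4, 78.5, 55.7 and 66.0 CPM in 4n-whole. All 4n-whole libraries lay above all 2n-whole libraries, and so did those of 4n-bottom (52.0, 58.3, 56.6 and 59.5 CPM) and of 4n-top (65.6, 55.1 and 60.6 CPM for mice 2 to 4), the 4n-bottom and 2n-whole values of mouse 1 being nearly equal. The log2 fold change of 4n-whole against 2n-whole was 0.47 (SE 0.11, adjusted p = 0.00832). It was 0.38 (SE 0.12, adjusted p = 0.141) in 4n-top and 0.30 (SE 0.11, adjusted p = 0.294) in 4n-bottom against the same 2n-whole libraries. Without mouse 2 the adjusted p of 4n-whole against 2n-whole was 0.0933 and without mouse 4 it was 0.152.

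Uros and Urod, which make and decarboxylate uroporphyrinogen in the cytosol, did not pass the test in any of the 6 comparisons. Uros ranged from 10.6 to 15.42 CPM and Urod from 44.4 to 61.0 CPM over the 15 libraries, and the populations overlapped for both. Their log2 fold changes of 4n-whole against 2n-whole were -0.047 (SE 0.15, adjusted p = 0.905) and -0.049 (SE 0.11, adjusted p = 0.859). Exons of Uros overlap those of Bccip (45.5 to 64.4 CPM) on the opposite strand, and whether the counting used strand is not given in the sources used here, so the level of Uros is uncertain.

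Cpox (ENSMUSG00000022742, chromosome 16, 58490414 to 58537999, plus strand) encodes coproporphyrinogen oxidase. Levels in 2n-whole were 124, 148, 153 and 145 CPM in mice 1 to 4, and in 4n-whole 158, 174, 195 and 232 CPM. In 4n-bottom they were 119, 131, 165 and 165 CPM, close to 2n-whole, and in 4n-top 151, 206 and 203 CPM for mice 2 to 4. Each 4n-whole library lay above every 2n-whole library, and each mouse had more Cpox in 4n-whole than in 4n-bottom. The log2 fold change of 4n-whole was 0.40 against 2n-whole (SE 0.09, adjusted p = 0.00851) and 0.39 against 4n-bottom (SE 0.09, adjusted p = 0.183). The latter passed the adjusted p by DESeq2 with mouse as block (0.40, adjusted p = 0.00601), by DESeq2 after ComBat-seq (0.39, adjusted p = 0.000905) and by edgeR without a filter on low counts (0.39, adjusted p = 0.0316). Between 4n-top and 2n-whole it was 0.30 (SE 0.10, adjusted p = 0.192), and between 4n-top and 4n-bottom 0.28 (SE 0.10, adjusted p = 1), higher in 3 of 3 mice. Without mouse 4 the difference between 4n-whole and 2n-whole was 0.30 (adjusted p = 0.253).

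Ppox, which oxidises protoporphyrinogen at the inner mitochondrial membrane, was at 5.18, 9.87, 7.62 and 9.63 CPM in 2n-whole of mice 1 to 4 and at 11.0, 17.1, 8.87 and 11.0 CPM in 4n-whole. The 4n-whole value was higher in 4 of 4 mice but the populations overlapped, and the log2 fold change of 0.57 did not pass the test (SE 0.20, adjusted p = 0.0854), although without mouse 3 it did (0.68, adjusted p = 0.0372). Exons of Ppox overlap those of B4galt3 (2.505 to 7.48 CPM) on the opposite strand, so the level of Ppox is uncertain as well. Fech, the last enzyme, stayed between 147 and 193 CPM in all 15 libraries, with all 4 populations overlapping. Its log2 fold change of 4n-whole against 2n-whole was 0.093 (SE 0.086, adjusted p = 0.613).

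Hmox1 (ENSMUSG00000005413) lies on chromosome 8 at 75820241 to 75827217, plus strand. It was at 4.46, 17.96, 16.3 and 6.72 CPM in 2n-whole of mice 1 to 4 and at 13.1, 28.7, 22.0 and 8.597 CPM in 4n-whole. The 4n-bottom values were 9.75, 18.3, 25.0 and 7.43 CPM, and the 4n-top values of mice 2 to 4 were 19.0, 25.7 and 10.35 CPM. Every mouse had more Hmox1 in 4n-whole than in 2n-whole, but mouse 4 in 4n-whole stayed below mice 2 and 3 in 2n-whole. The log2 fold change of 4n-whole against 2n-whole was 0.74 (SE 0.18, adjusted p = 0.0130), and 0.50 without mouse 1 (adjusted p = 0.0905). Against 2n-whole it was 0.59 in 4n-top (SE 0.19, adjusted p = 0.168) and 0.45 in 4n-bottom (SE 0.18, adjusted p = 0.355). Summed Kupffer cell markers, a cell type rich in Hmox1, were 0.887 to 10.1 CPM in 2n-whole and 1.60 to 3.85 CPM in 4n-whole, and their defining gene Clec4f was at 0 in 3 of 15 libraries. Their part in the Hmox1 difference was not tested.

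Blvrb (ENSMUSG00000040466, chromosome 7, 27147275 to 27165569, plus strand) encodes a flavin and biliverdin reductase of the cytosol. Its 2n-whole levels were 20.8, 24.4, 20.8 and 25.4 CPM in mice 1 to 4, against 27.9, 30.2, 35.4 and 42.6 CPM in 4n-whole. In 4n-top it reached 28.2, 44.0 and 45.5 CPM in mice 2 to 4, and in 4n-bottom 21.2, 23.9, 24.5 and 38.5 CPM. All libraries of 4n-whole and 4n-top lay above all of 2n-whole, while in 4n-bottom only mouse 4 did. The log2 fold change against 2n-whole was 0.55 in 4n-whole (SE 0.13, adjusted p = 0.00962) and 0.68 in 4n-top (SE 0.14, adjusted p = 0.00785), a 1.60-fold difference in the latter. Between 4n-top and 4n-bottom it was 0.47 (SE 0.14, adjusted p = 1), and between 4n-whole and 4n-bottom 0.35 (SE 0.13, adjusted p = 0.819). The 4n-whole call was lost without mouse 4 (0.49, adjusted p = 0.139) and without mouse 3 (0.48, adjusted p = 0.0287, under the fold limit). For 4n-top against 2n-whole the values were 0.48 without mouse 3 (adjusted p = 0.283) and 0.62 without mouse 4 (adjusted p = 0.192).

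**Figure D3:**
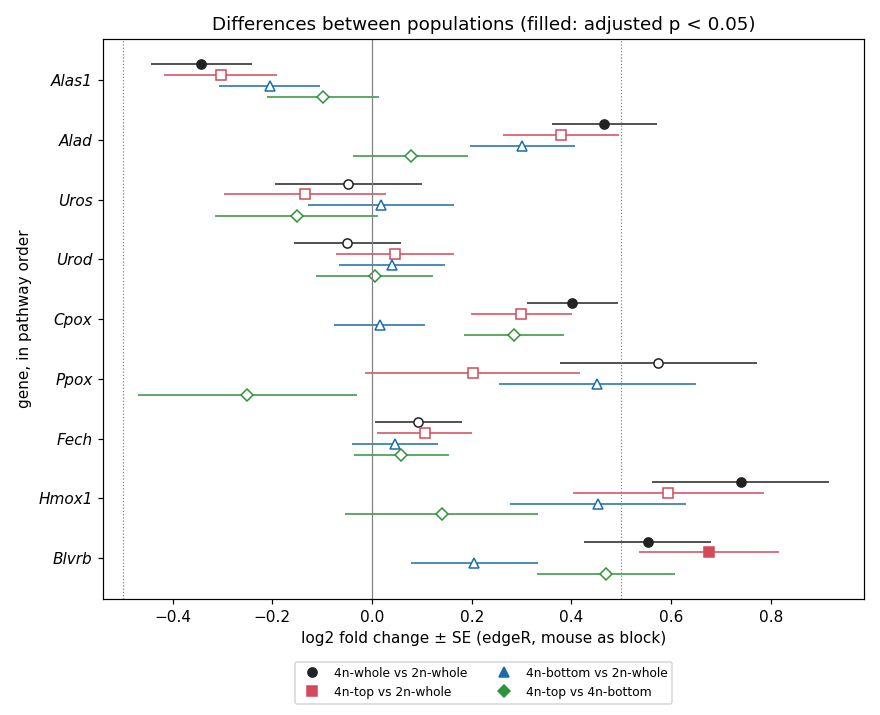
Log2 fold change ± SE of the 9 genes in pathway order in 4 comparisons (edgeR, mouse as block), filled where the adjusted p was under 0.05 and with dotted lines at the log2 fold change limit of 0.5. In 4n-whole against 2n-whole Alas1 lies at -0.34 and Alad, Cpox, Hmox1 and Blvrb between 0.40 and 0.74, and Blvrb (0.68) is the filled gene of 4n-top against 2n-whole.

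Counted over mice, 5 members (Alad, Cpox, Ppox, Hmox1 and Blvrb) were higher in 4n-whole than in 2n-whole in every mouse, beside 11.7% of all tested genes, and 1 (Alas1) was lower in every mouse, beside 11%. In 3 members (Alad, Cpox and Blvrb) the 2 populations did not overlap, beside 5.8% of all tested genes, and 6 had an unadjusted p under 0.05, beside 20.4%. In 4n-top against 2n-whole 1 member, Blvrb, passed both limits, beside 0.961% of all tested genes, and the median log2 fold change of the 9 was 0.20. Alad and Blvrb, 2 members, did not overlap between 4n-top and 2n-whole, beside 9.21% of all tested genes. These comparisons share the 2n-whole libraries. No member passed in 4n-bottom against 2n-whole, beside 0.463% of all tested genes, and 3 members (Alad, Ppox and Hmox1) had an unadjusted p under 0.05, beside 10.2%. Alad alone (1 member) did not overlap between 4n-bottom and 2n-whole, beside 3.52% of all tested genes. By population mean, Alad, Cpox, Ppox, Fech, Hmox1 and Blvrb were lowest in 2n-whole and Alas1 was highest there. None of the 27 pairs of neighbours in these orders of population means passed the adjusted p threshold (edgeR), the smallest adjusted p being 0.294.

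The split of tetraploid cells by nuclear signal was compared directly. Between 4n-top and 4n-bottom 0 of 9 members passed, beside 0.0114% of all tested genes, with a median log2 fold change of 0.06 over the members. Cpox and Blvrb had an unadjusted p under 0.05 by edgeR, beside 2.79% of all tested genes. These 2 and Hmox1 were higher in 4n-top in 3 of 3 mice, beside 10.8% of all tested genes. DESeq2 with mouse as block, and DESeq2 after ComBat-seq, called 0 members as well, with 49 and 18 genes called in all against 2 by edgeR. Between 4n-whole and 4n-bottom 0 members passed, beside 0.00572% of all tested genes, and the same 2 genes had an unadjusted p under 0.05, beside 5.57%. Between 4n-whole and 4n-top 0 members passed and 0 had an unadjusted p under 0.05, beside 0% of all tested genes called and 4% at an unadjusted p under 0.05.

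Several of these transcripts differed widely between mice. A joint test of the mouse terms in the same model, added after the data were seen, found 4 of 9 members at an adjusted p under 0.05, namely Alas1, Cpox, Hmox1 and Blvrb, beside 19.2% of all tested genes. For Alas1 the fitted levels of the 4 mice spanned 1.76 on the log2 scale (adjusted p = 7.33e-12), from mouse 3 (169.7 to 210.0 CPM in its 4 libraries) to mouse 2 (569 to 723 CPM). Hmox1 spanned 1.42 (adjusted p = 2.10e-07), with mice 2 and 3 at 16.3 to 28.7 CPM and mice 1 and 4 at 4.46 to 13.1 CPM, so that these pairs of mice did not overlap in any library. Cpox spanned 0.43 (adjusted p = 0.00488) and Blvrb 0.59 (adjusted p = 0.00759), both lowest in mouse 1 and highest in mouse 4. The median span over all tested genes was 0.67 between mice and 0.47 between populations. The corresponding test of any population difference found 2 members, Cpox (adjusted p = 0.0157) and Blvrb (adjusted p = 0.0103), beside 1.95% of all tested genes. Mouse, age within the stated range and day of isolation cannot be told apart.

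**Figure D4:**
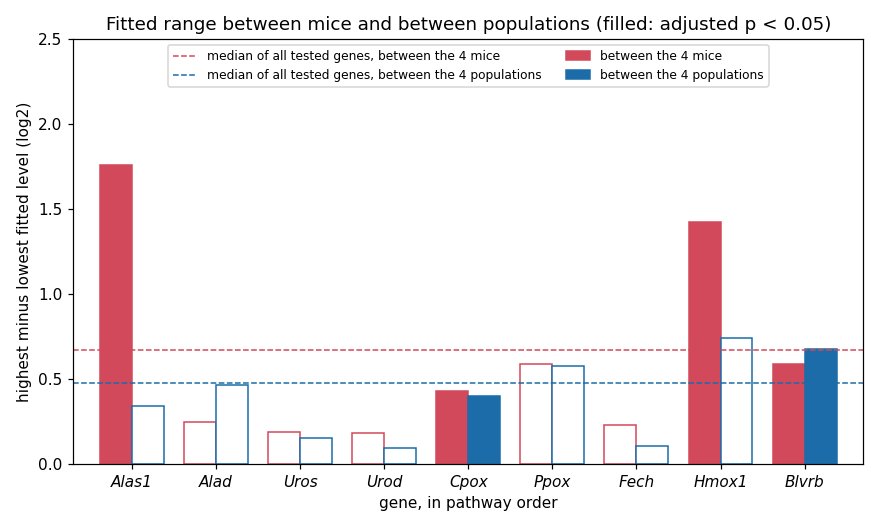
Highest minus lowest fitted level (log2) of the 9 genes between the 4 mice and between the 4 populations, filled where the joint test gave an adjusted p under 0.05, with dashed lines at the median over all tested genes. Alas1 (1.76) and Hmox1 (1.42) exceed the median between mice of 0.67, and Blvrb (0.68) and Cpox (0.40) are filled between populations.

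Of 3 further enzymes of the pathway (Alas2, Hmox2 and Blvra), 0 passed in 4n-whole against 2n-whole (edgeR), beside 3.47% of all tested genes. An unadjusted p under 0.05 was found for 0 of them, beside 20.4% of all tested genes. Hmox2, the constitutive heme oxygenase, had a log2 fold change of -0.17 (SE 0.12, adjusted p = 0.458). Alas2, the isoenzyme known from red cell precursors, was at 52.7 to 105.7 CPM in all 15 libraries, which per kilobase (27.9 CPM) was below Alas1 and above Cpox. With the longest transcript Alas2 (34.3 CPM per kilobase) was below Cpox (49.3). The other 10 erythroid markers summed to between 0.789 and 3.85 CPM, and the globin genes Hba-a2 and Hbb-bs were at 0 in all 15. Exons of Alas2 overlap Apex2 (5.66 to 12.6 CPM) on the opposite strand.

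Genes that act on Alas1 moved in both directions between 4n-whole and 2n-whole. Of 14, 1 passed both limits upwards and 1 downwards, beside 3.47% of all tested genes in either direction. Nr1i3, the nuclear receptor CAR that induces Alas1 with drug-metabolising enzymes, rose by a log2 fold change of 1.53 (SE 0.16, adjusted p = 6.72e-07). Ppargc1a, encoding the fasting-induced coactivator PGC-1alpha that raises Alas1, fell by 0.59 on the log2 scale (SE 0.13, adjusted p = 0.00682). Between mice 10 of these 14 genes differed, beside 19.2% of all tested genes. So did 43 of 56 cytochrome P450 genes and 13 of 14 genes of tissue dissociation and heat shock, but 1 of 9 regulators of Hmox1. Nr1d1, encoding the clock repressor REV-ERBalpha, was at 67.6 to 73.9 CPM in mouse 1 and at 17.9 to 27.1 CPM in the others, and Nr1i3 spanned 2.15 on the log2 scale between mice (adjusted p = 5.02e-10).

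Among 9 regulators of Hmox1, 2 passed the adjusted p in 4n-whole against 2n-whole, and 1 of these also the fold limit. Of all tested genes 5.47% passed the adjusted p in this comparison and 3.47% both limits. Atf4, a factor of the stress response, rose by 0.54 (SE 0.11, adjusted p = 0.00215) and Keap1, which holds NRF2 in the cytosol, by 0.50 (SE 0.13, adjusted p = 0.0283). Of 16 tested NRF2 targets other than Hmox1 and Blvrb 1 passed the adjusted p, the ferritin light chain gene Ftl1 (0.35, SE 0.10, adjusted p = 0.0363), and their median log2 fold change was -0.03. Of 14 tested genes of tissue dissociation and heat shock, 5 passed the adjusted p upwards, with Hspa1b at 0.86 (SE 0.21, adjusted p = 0.0146) and a median of 0.28. The part of this response in the Hmox1 difference was not tested.

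Heme users and carriers were counted in the same fit. Of all tested genes 3.47% passed both limits in 4n-whole against 2n-whole and 5.47% the adjusted p. Of 56 cytochrome P450 genes, 16 rose and 6 fell past both limits there, with a median log2 fold change of 0.14. Of 19 other hemoproteins and partner proteins 1 passed the adjusted p upwards and 3 downwards, with a median of -0.03. The 1 was Por, the reductase that feeds P450 enzymes electrons (0.65, SE 0.10, adjusted p = 7.74e-05). Among those that fell were Uqcrb (-0.80, SE 0.18, adjusted p = 0.00995) and Tdo2 (-0.32, SE 0.08, adjusted p = 0.0167). Cyp1a2 rose by 1.65 and Cyp2a5 by 1.60, both among the 15 pericentral markers, of which 14 rose past both limits (median 1.61). Of 15 periportal markers 3 fell past both limits, with a median of -0.26. Summed pericentral markers were 735 to 1083 CPM in 2n-whole and 1200.4 to 3763 CPM in 4n-whole, and the part of zonal position in the differences of the 9 members was not tested. Of 16 genes for heme and porphyrin transport 1 passed the adjusted p, Hebp1, encoding a cytosolic heme-binding protein (0.46, SE 0.10, adjusted p = 0.00757). Of 6 genes for bilirubin uptake, conjugation and export the carrier gene Slco1a1 was the 1 that passed, in 4n-top against 2n-whole (0.57, SE 0.14, adjusted p = 0.0425). Slco1a1 was named after its values were seen, and 0.961% of all tested genes passed both limits in 4n-top against 2n-whole. Among 6 genes that scavenge heme and hemoglobin Ambp, the precursor of the heme-binding alpha-1-microglobulin, fell by 0.34 (SE 0.09, adjusted p = 0.0249), and among 15 tested iron genes the ferroxidase gene Cp fell by 0.48 (SE 0.10, adjusted p = 0.00389) and the receptor gene Tfr2 rose by 0.28 (SE 0.08, adjusted p = 0.0471).

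The genes whose pattern was most like that of a member were ranked by Pearson r of log2 CPM over the 15 libraries after the mouse effect was removed, among 7371 genes. The libraries share 4 populations, so this r describes the pattern over populations together with the scatter within them. Blvrb was followed most closely by Ces1d (0.93), Cldn2 (0.91) and Rnase4 (0.91), Hmox1 by Pnp (0.94), Pip4p1 (0.92) and Gm29966 (0.90), and Cpox by Socs2 (0.93), Mcc (0.91) and Ikbkg (0.91). Alas1 was followed by Sptan1 (0.90), Tmx4 (0.86) and Ubxn2a (0.86), and Alad by, among others, Otulin (0.97) and Fkbp4 (0.95). Among the members themselves the largest r was that of Cpox with Blvrb (0.86) and the lowest that of Alas1 with Hmox1 (-0.88). Both are descriptions over libraries that share mice and populations. For Alas1 and Hmox1 the extremes of both genes came from mouse 1. After the mouse effect was removed they were at 9.10 and 2.81 log2 CPM in its 2n-whole library and at 8.24 and 4.35 in its 4n-whole library.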

How the data were processed

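RNA-seq was made from sorted mouse hepatocytes with a stranded low-input kit. Reads were aligned by the authors with STAR (version 2.7.11a, per the submitters' processing notes) to GRCm39, and featureCounts gave the deposited count table, which holds unnormalized counts per gene symbol in 15 libraries. The annotation, the strand setting and the handling of read pairs are not given in the sources used here. Between 74.2% and 81.4% of the counts from 1 to 10 in a library were even.

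Differential expression was computed with edgeR 4.0.16 (R 4.3.3, TMM, filterByExpr with a minimum count of 10 and a total of 15, quasi-likelihood F test) on all 15 libraries, with population as factor and mouse as replicate block. P-values were adjusted by Benjamini-Hochberg over 17488 genes, and a gene was called at an adjusted p under 0.05 and a log2 fold change beyond 0.5. The SE is the log2 fold change divided by the square root of F. Subject numbers in the labels name the mouse. After population means were removed, library pairs from 1 mouse correlated at 0.158 on average (0.0845 to 0.227, 21 pairs). Pairs from different mice correlated at -0.0526 on average (-0.207 to 0.0919, 63 pairs), so the ranges overlapped slightly. The script was tested on simulated data. Alternatives used DESeq2 1.42.0, ComBat-seq (sva 3.50.0), other scaling, filters and samples, and each mouse left out. Likeness used limma 3.58.1 (prior count 2, mean log2 CPM of at least 3). With mouse as block, the P-values of population comparisons set each difference against a residual spread. That spread was estimated from all 15 libraries after the population and mouse terms, and leaves out differences in level between mice. The P-values of the joint mouse test set the mouse differences against the same residual spread.

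Levels per kilobase used exon lengths of GENCODE M39, and promoter sequences came from RefSeq. Named genes were the 9 members, up to 3 genes with the smallest p per list in each of 4n-whole against 2n-whole and 4n-top against 4n-bottom, cell type markers and the 3 genes most like each member; some genes under these rules are not reported here. The members and lists were chosen with earlier results of these data known. The joint tests of mouse and of population were added after the data were seen.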

Additional observations from a re-analysis of the deposited data

How the results depend on the processing

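Both calls in 4n-whole against 2n-whole (Hmox1, Blvrb) were also made by DESeq2 with mouse as block, by DESeq2 after ComBat-seq, with DESeq2 size factors, and without rRNA and mitochondrial genes. Without the replicate block for the mouse 0 members were called there and 0 in 4n-top against 2n-whole, where the main count was 1, and the 5 members past the adjusted p in the former had adjusted p from 0.160 to 0.777. Library totals without TMM moved the median of all genes in 4n-whole against 2n-whole to 0.20 (log2). They gave 5 members there (1509 of 17488 genes) and 3 in 4n-top against 2n-whole (419 of 17488 genes). In 4n-whole against 2n-whole Alas1 was reduced to -0.14 (adjusted p = 0.491). All calls there split into 1334 higher and 175 lower genes, against 305 and 302 in the main fit. With those totals Uros (0.16) and Urod (0.15) changed sign, as did Uros without mouse 3 (range -0.18 to 0.041 over the mice left out) and Urod without mouse 2 (-0.11 to 0.035), all with an adjusted p above 0.05. With the compared populations alone 1 member was called in 4n-whole against 2n-whole (305 of 14828 genes), and without the fold limit 5 (957 of 17488 genes). No filter on low counts gave 3 members in 4n-whole against 2n-whole (709 of 39304 genes). It gave 2 in 4n-top against 2n-whole (261 of 39304 genes). Leaving out each mouse in turn gave 1 to 2 members (244 to 1025 of all genes) in 4n-whole against 2n-whole and 0 to 2 (98 to 238 of all genes) in 4n-top against 2n-whole. In the former these were Alad and Blvrb without mouse 1, Hmox1 and Blvrb without mouse 2, Hmox1 and Ppox without mouse 3 and Hmox1 without mouse 4, and in the latter Blvrb without mouse 1, Hmox1 and Blvrb without mouse 2 and 0 members without mouse 3 or 4, and the other 4 comparisons had 0 members past both limits in every alternative, while Cpox passed the adjusted p in 4n-whole against 4n-bottom in 3 of 12. The causes were not tested. Over all genes the calls of 4n-whole against 2n-whole numbered 607, and 40 without the block. Members differing between mice numbered 2 (Alas1, Hmox1) without 4n-bottom and 3 to 4 without a mouse, alternatives chosen after seeing the data. Depth limits the low genes most, Ppox having 175 to 507 counts and Hmox1 181 to 824 in a library.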
